A study of Homo sapiens with 6 samples.

Results

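The genes described here are 9 parts of the machinery that BET inhibitors act on: the bromodomain proteins BRD2, BRD3 and BRDT, the kinase CDK9 with its cyclins CCNT1 and CCNT2, the scaffold AFF4, and the inhibitors HEXIM1 and HEXIM2. They were picked by symbol, for their known roles, from a table of 19785 genes, and each symbol matched a single row. SET-2 OTX P/R, a derivative of SET-2 that had persisted in and become resistant to OTX, read here as the BET inhibitor birabresib, was compared with parental SET-2. SET-2 is an established human leukemia line of megakaryoblastic character, labelled as secondary acute myeloid leukemia. Both lines were untreated and grew exponentially in RPMI medium with fetal bovine serum, and each gave 3 libraries of total RNA, called biologic replicates. The labels name 1 derivative, so a difference that came with resistance and any other difference between the lines cannot be told apart. No label gives separate derivations of the resistant line, so the p-values measure the spread between these cultures.

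BET proteins bind acetylated histones through paired bromodomains and bring in P-TEFb, the kinase complex of CDK9 with cyclin T1 or T2. P-TEFb phosphorylates RNA polymerase II and the factors that hold it in pause near promoters, which lets the polymerase enter productive elongation. A large share of P-TEFb is held inactive on the 7SK RNA by HEXIM1 or HEXIM2, and the super elongation complex, built on AFF4 or AFF1, is an active carrier of it. HEXIM1 is known to rise when cells are given a BET inhibitor and is used as a marker of drug exposure in blood cells.

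The deposited value is a StringTie abundance per gene, normalized per transcript length and then by quantiles across the libraries, so it shows where a gene ranks among the others of that library. The sum of the values ran from 419375 to 419437 over the 6 libraries, and the depth of sequencing is not known. Libraries correlated on the log2 scale at 0.986 to 0.988 within the groups and at 0.948 to 0.949 between them. Of the 10 markers of the megakaryocyte lineage and of blasts 8 had a mean of at least 1, with summed values of 575.2 to 587.0 in OTX P/R and 599.2 to 622.0 in parental libraries, while PF4 was at 0 in every library and VWF at no more than 0.0130. These sums hide opposite differences: ITGA2B averaged 137.7 in OTX P/R and 216.0 in parental cells and KIT 54.3 in OTX P/R and 106.1 in parental cells, while CD34 averaged 63.4 in OTX P/R and 32.6 in parental cells, GFI1B 77.5 in OTX P/R and 47.7 in parental cells, and ITGB3 21.0 in OTX P/R and 4.83 in parental cells. None of the 3 T cell, 3 epithelial and 3 fibroblast markers reached a mean of 1 over all 6 libraries, and of the 3 B cell markers CD79A did, at 6.71 in OTX P/R and 8.81 in parental cells. Summed T cell markers were 0.103 to 0.214 in OTX P/R and 1.39 to 1.65 in parental libraries, and summed fibroblast markers were 1.88 to 2.00 in OTX P/R and 0.0686 to 0.146 in parental libraries. Nearly all of the difference between the groups in these sums lay in CD2 and COL1A1. CD2 was at 0.105 in OTX P/R and 1.44 in parental cells, and COL1A1 at 1.92 in OTX P/R and 0.0732 in parental cells. The part of these markers in the results was not tested. In bulk RNA, fewer cells with a transcript and less of it per cell cannot be told apart.

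Of the 9 genes 6 had a mean of at least 1 over the libraries and were tested, and 3 of these 6 passed: CDK9 was higher in OTX P/R cells, and HEXIM1 and AFF4 were lower. CCNT1, CCNT2 and BRD3 did not pass, and BRD2, HEXIM2 and BRDT lay under the minimum and were not tested. A gene passed at an adjusted p under 0.05 in limma, fitted on log2(value + 1) over 10741 genes with Benjamini-Hochberg adjustment. In that fit 36.1% of all tested genes passed, 18.6% higher and 17.5% lower, so the 3 of 6 stand against a background in which such calls are common. The median log2 fold change of the 6 was -0.04, against 0.02 over all tested genes. No OTX P/R library overlapped the parental ones for CDK9, HEXIM1, AFF4 and BRD2, and 51.6% of all tested genes were likewise separated.

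**Figure D1:**
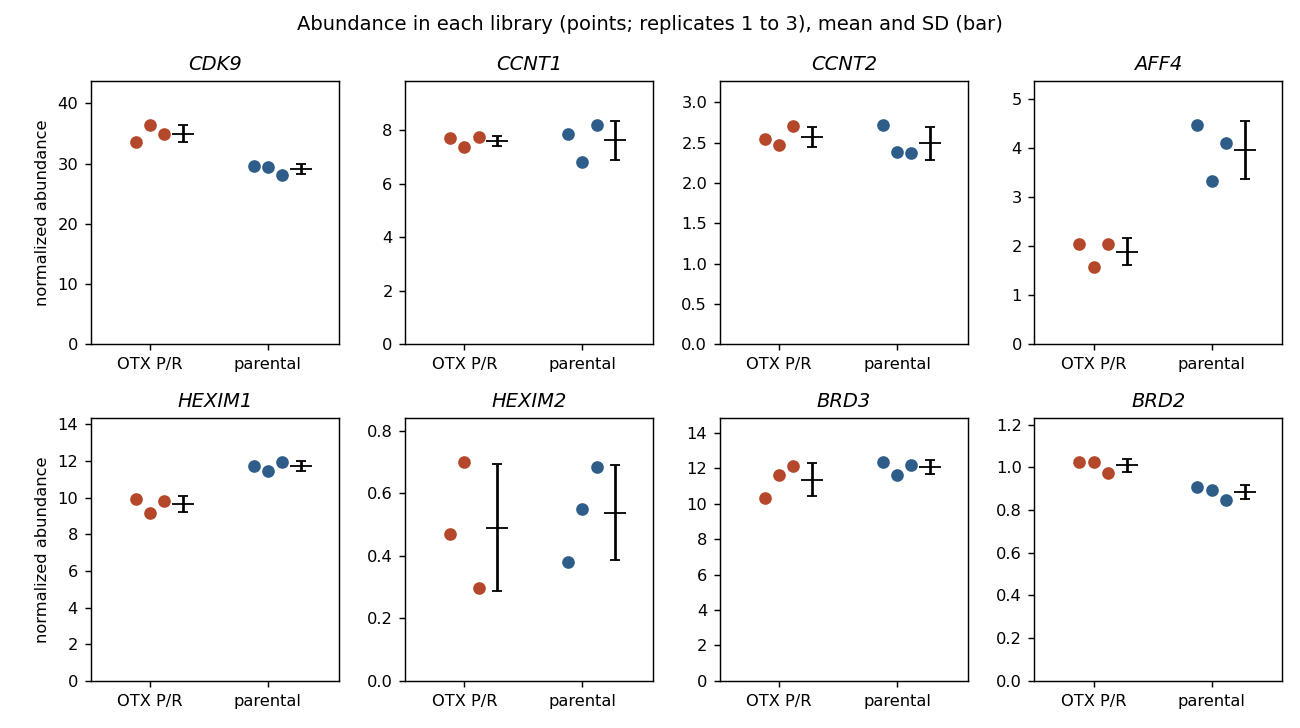
Normalized abundance (linear axis from 0, a scale of its own for each gene) of 8 genes in the 3 OTX P/R libraries (left in each panel) and the 3 parental libraries (right), with the group mean and SD beside the points. CDK9 and BRD2 lie higher in every OTX P/R library than in any parental one, HEXIM1 and AFF4 lie lower, and the other panels overlap.

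CDK9, the catalytic subunit of P-TEFb, had the highest level of the genes described, BRD2 left aside because its level cannot be read. Its abundance was 33.6, 36.4 and 34.9 in OTX P/R replicates 1 to 3, against 29.7, 29.5 and 28.1 in parental replicates 1 to 3. Every OTX P/R library was above every parental one. The mean was 34.96 ± 1.44 in OTX P/R cells and 29.1 ± 0.885 in parental cells (SD, n = 3 each). The log2 fold change was 0.26 (SE 0.05, 95% interval 0.13 to 0.38, limma adjusted p = 0.0110), and the ratio of means was 1.201. In rank, CDK9 stood above 89.6% of the genes of the table in OTX P/R libraries and above 87.6% in parental libraries.

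CCNT1 encodes cyclin T1, the main partner of CDK9. Its abundance was 7.70, 7.38 and 7.74 in OTX P/R libraries, against 7.85, 6.82 and 8.21 in parental libraries, and the OTX P/R values lie inside the parental range. The log2 fold change was -0.00 with an interval of -0.19 to 0.19 (limma adjusted p = 0.999). CCNT2, which encodes the alternative partner cyclin T2, stood at 2.54, 2.47 and 2.71 in OTX P/R libraries, against 2.72, 2.38 and 2.37 in parental libraries. Its groups overlapped as well, with a log2 fold change of 0.03 and an interval of -0.14 to 0.21 (limma adjusted p = 0.737). Both intervals still hold changes as large as the lower bound for CDK9, 0.13. CCNT1 was 2.96 ± 0.0887 times CCNT2 in OTX P/R cells and 3.07 ± 0.337 times in parental cells (SD, n = 3 each), ranges that overlap. Cyclin T1 was thus the more abundant cyclin transcript in all 6 libraries, on a scale that is per transcript length.

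HEXIM1 encodes the principal inhibitor of P-TEFb, which holds CDK9 on the 7SK RNA. Its abundance was 9.94, 9.16 and 9.82 in OTX P/R libraries, against 11.7, 11.4 and 11.97 in parental libraries. All OTX P/R values were below all parental ones. The mean was 9.64 ± 0.421 in OTX P/R cells and 11.7 ± 0.264 in parental cells (SD, n = 3 each). HEXIM1 fell by 0.26 on the log2(value + 1) scale (SE 0.05, interval -0.39 to -0.12, limma adjusted p = 0.0138). With each library left out in turn, the adjusted p ran from 0.0292 to 0.0488. HEXIM2, its paralog on the same chromosome, was at 0.469, 0.701 and 0.298 in OTX P/R libraries and at 0.381, 0.548 and 0.684 in parental libraries, too low for the test and with overlapping groups. HEXIM1 exceeded HEXIM2 in every library, by 13.1 to 33.0 times in OTX P/R and by 17.5 to 30.8 times in parental libraries.

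Because CDK9 was higher and HEXIM1 lower, the ratio of inhibitor to kinase transcripts differed more than either gene did. HEXIM1 stood at 0.276 ± 0.0229 of CDK9 in OTX P/R cells and at 0.403 ± 0.0205 of CDK9 in parental cells (SD, n = 3 each). The ratio ran from 0.251 to 0.296 in OTX P/R libraries and from 0.387 to 0.426 in parental libraries, without overlap. The difference of the log2 ratio was -0.55, and between -0.60 and -0.48 with each library left out in turn. No p is given for this ratio, since its parts were already seen to differ, and transcript ratios do not measure the protein complexes.

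AFF4 encodes the scaffold of the super elongation complex, which joins P-TEFb to ELL proteins. Its abundance was 2.05, 1.57 and 2.04 in OTX P/R libraries, against 4.48, 3.33 and 4.11 in parental libraries. The lowest parental library was above the highest OTX P/R library. The mean was 1.89 ± 0.275 in OTX P/R cells and 3.97 ± 0.588 in parental cells (SD, n = 3 each), a ratio of means of 0.476. AFF4 fell by 0.78 on the log2(value + 1) scale (SE 0.12, interval -1.07 to -0.49, limma adjusted p = 0.00385). At this low level the size depends on the pseudocount, at -1.03 with 0.1 and -0.38 with 5, while the call held with both.

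BRD3, a BET protein expressed in many tissues, was at 10.3, 11.6 and 12.1 in OTX P/R libraries, against 12.4, 11.6 and 12.2 in parental libraries. OTX P/R replicate 1 was the lowest of the 6, and the other libraries overlapped. The log2 fold change was -0.08 with an interval of -0.26 to 0.09 (limma adjusted p = 0.420). BRDT, the BET protein of male germ cells, was at or under 0.000818 in every library, so no level can be read from it.

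BRD2 is the BET protein encoded within the major histocompatibility complex on chromosome 6, and its values cannot be taken as its level, because much of the region around it was listed near 0. It was listed at 1.03, 1.03 and 0.975 in OTX P/R libraries, against 0.910, 0.892 and 0.846 in parental libraries. The mean was 1.01 ± 0.0297 in OTX P/R cells and 0.883 ± 0.0328 in parental cells (SD, n = 3 each), without overlap between the groups. Its mean over all libraries, 0.946, was under the minimum of 1. In a fit without the minimum, the log2 fold change was 0.09 with an interval of 0.02 to 0.17, and BRD2 did not pass (limma adjusted p = 0.0835). Of the 24 nearest protein-coding genes 21 had a mean under 1, and of the 100 nearest 63.0% did, against 45.1% of all 19438 protein-coding genes. Around the other 8 genes 24 to 51 of the 100 nearest did, and 16.7% to 66.7% of the 24 nearest, with BRD3 at 66.7% and HEXIM1 at 62.5%. Genes of this chromosome that all cells use, chosen after their values were seen, were among those at or near 0: TUBB, a beta-tubulin, was at 0 in all 6 libraries, and the RNA helicase gene DDX39B reached at most 0.0109. NELFE, a subunit of the pausing factor NELF, reached at most 0.00329, and CSNK2B, the regulatory subunit of casein kinase 2, was at 0.134 to 0.184 in OTX P/R and 0.0894 to 0.112 in parental libraries. By contrast TUBA1B, an alpha-tubulin gene on chromosome 12, was at 1106 to 1149 in OTX P/R and 658.4 to 966.4 in parental libraries, and CSNK2A1, the catalytic partner of CSNK2B on chromosome 20, at 25.4 to 67.8 in OTX P/R and 30.5 to 55.2 in parental libraries. Not every gene near BRD2 was low. RPS18, the nearest tested gene on its higher-coordinate side, averaged 192.0 in OTX P/R and 213.3 in parental cells. CUTA, further along that side, averaged 42.3 in OTX P/R and 36.6 in parental cells. Why many values of this region are low was not tested. The ratio of BRD2 to BRD3, 0.0894 in OTX P/R and 0.0733 in parental cells, therefore compares listed values only.

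**Figure D2:**
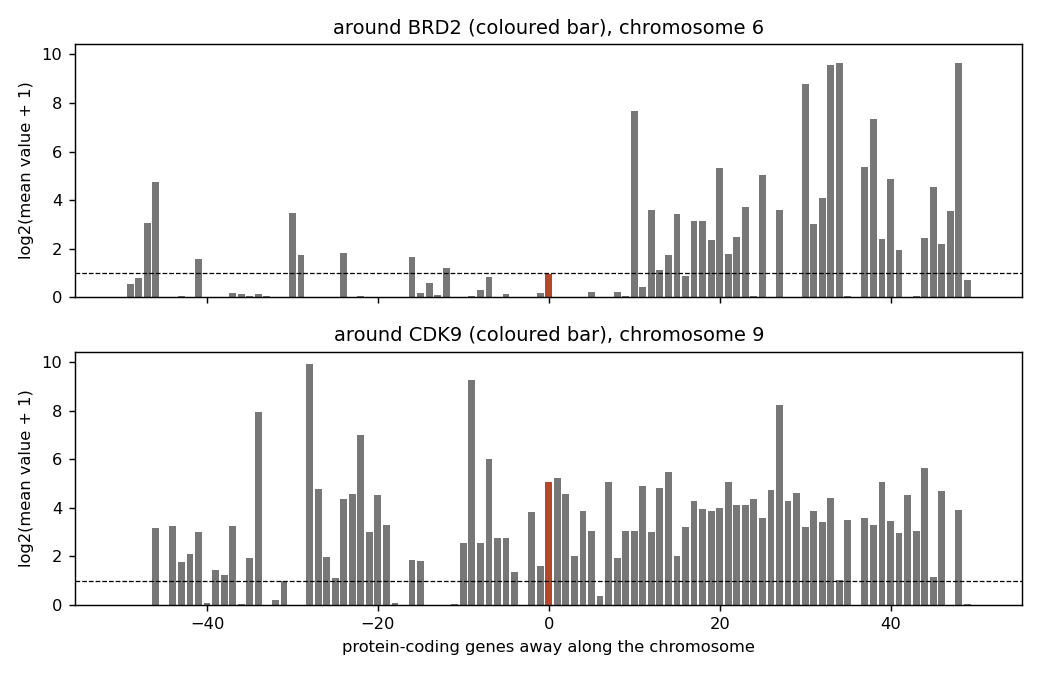
Mean level over the 6 libraries, as log2(mean value + 1), of BRD2 (coloured, upper panel) and CDK9 (coloured, lower panel) and of the 50 protein-coding genes on each side in chromosomal order, with a dashed line at a mean of 1. Around BRD2 63 of 100 genes lie under the line, 21 of the 24 nearest among them, and around CDK9, the lowest of the 9 genes in this count, 24 of 100 do.

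Leaving out BRD2, the order of the levels in parental cells was CDK9, BRD3, HEXIM1, CCNT1, AFF4, CCNT2, HEXIM2 and BRDT. BRD3 and HEXIM1 overlapped there, and the other neighbours in the order did not. In OTX P/R cells HEXIM1 lay below BRD3 in every library, and AFF4, at 1.57 to 2.05, lay below CCNT2, at 2.47 to 2.71. AFF4 and CCNT2 were thus in the opposite order in parental cells, where AFF4 was at 3.33 to 4.48 and CCNT2 at 2.37 to 2.72.

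**Figure D3:**
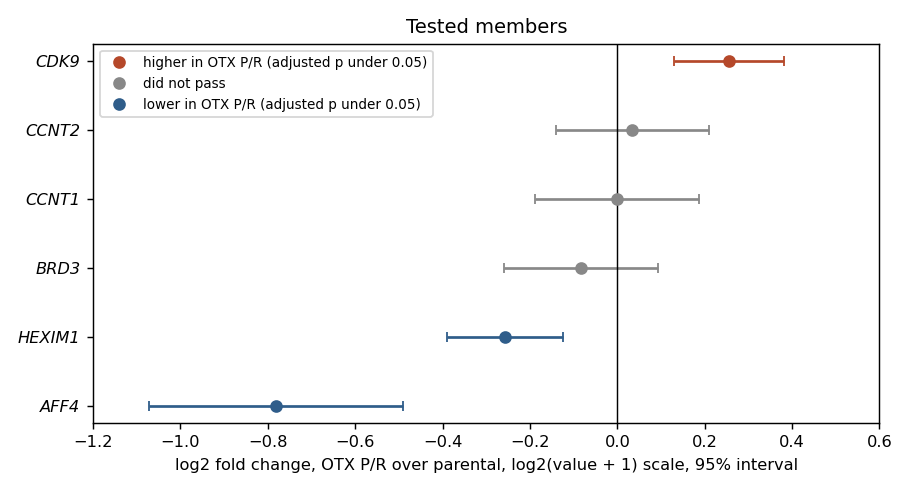
Log2 fold change, OTX P/R over parental, with its 95% interval from limma for the 6 tested genes on the log2(value + 1) scale. The intervals of CDK9 (0.13 to 0.38), HEXIM1 (-0.39 to -0.12) and AFF4 (-1.07 to -0.49) lie off 0, and those of CCNT1, CCNT2 and BRD3 include it.

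The stretches of sequence just upstream of the start sites of the 3 genes that passed are shown as a description. A link between their letters and the direction of change was not tested. The stretches are the 100 bases before the start, 5′ to 3′ on the gene's strand. They come from RefSeq on GRCh38.p14, a build other than the hg19 of the deposited table. Capitals mark a TATA box (TATAAA) in HEXIM1 and an E-box (CACGTG, letters bound by basic helix-loop-helix factors) in AFF4, and CDK9 has neither.
HEXIM1, chr17:45148375-45148474, plus strand: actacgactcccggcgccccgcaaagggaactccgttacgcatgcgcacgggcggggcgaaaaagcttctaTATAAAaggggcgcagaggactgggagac
CDK9, chr9:127785934-127786033, plus strand: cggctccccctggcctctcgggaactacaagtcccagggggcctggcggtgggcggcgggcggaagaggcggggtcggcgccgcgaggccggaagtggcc
AFF4, chr5:132963635-132963734, minus strand: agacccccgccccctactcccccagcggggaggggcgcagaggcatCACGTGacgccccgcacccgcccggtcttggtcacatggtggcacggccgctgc

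The TATA box of HEXIM1 began 29 bases before the start and the E-box of AFF4 began 54 bases before it. The letters were searched on both strands in the 250 bases before each of 35116 RefSeq starts. TATAAA was found in 10.7% of these windows, CACGTG in 6.34% and CTTTGAT, the core that TCF/LEF factors bind, in 2.26%. CTTTGAT was found before 1 start of HEXIM2 and before no start of the other 8 genes. The other letters were not limited to genes that passed. CACGTG was also found before starts of BRDT and CCNT1, and TATAAA before a start of BRDT. All 9 genes matched an entry, with 15 starts in all, of which 12 held more CpG dinucleotides than the median window. CDK9 had 37 CpG in its window, HEXIM1 31 and AFF4 26, against a median of 11. A match of letters is a description of the sequence and does not show binding.

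Genes beside AFF4 fell too. The median log2 fold change of the 12 tested genes nearest on each side of it on chromosome 5 was -0.74, beside -0.78 for AFF4, and 17 of these 24 fell, 1 rose and 6 did not pass. All 10 of the 5 nearest on each side fell. The nearest tested gene on the lower-coordinate side, UQCRQ, a subunit of respiratory complex III, was at 56.2 ± 13.8 in OTX P/R cells and 118.4 ± 8.31 in parental cells (SD, n = 3 each; log2 fold change -1.09, limma adjusted p = 0.00619). ZCCHC10, the nearest on the other side and a zinc finger gene, fell by 0.89 on the log2(value + 1) scale (limma adjusted p = 0.00250). On the log2(value + 1) scale 9 of the 10 nearest genes fell by more than AFF4 did. That scale understates the fall of a gene as low as AFF4, which was -1.03 with a pseudocount of 0.1. The order of these falls therefore depends on the scale. On the lower-coordinate side the run ended with IRF1, the sixth gene away, and the 6 genes beyond it had changes from -0.18 to 1.13.

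HEXIM1 also lay beside genes that were lower. On chromosome 17 the 12 tested genes on its lower-coordinate side had a median of -0.79 on the log2(value + 1) scale, and 9 of them fell. Its nearest tested genes were ACBD4, an acyl-CoA binding protein, and FMNL1, a formin of blood cells. Each fell by 0.82 on the log2(value + 1) scale (limma adjusted p = 0.00129 for ACBD4 and 0.00124 for FMNL1). ACBD4 was low, at 0.688 in OTX P/R and 1.98 in parental cells, and the scale understates its fall more. FMNL1 was at 5.03 in OTX P/R and 9.70 in parental cells. HEXIM1, at -0.26, changed less than 11 of those 12 genes. On the higher-coordinate side the 3 nearest were below 0, FMNL1 alone of them passing, and the last 9 of the 12 had a median of 0.36, with 5 that rose and none that fell. ITGB3, an integrin gene of platelets, was the highest of them at 1.92. The change of HEXIM1 thus lay between the medians of its neighbours on the 2 sides, -0.79 and 0.30.

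The genes around CDK9 moved both ways. Of its 24 nearest tested genes on chromosome 9, 6 rose, 2 fell and 16 did not pass; their median log2 fold change was 0.10, and 6 of the 24 had a larger positive change than CDK9. SH2D3C, an adaptor next to it, rose by a log2 fold change of 0.71 (limma adjusted p = 0.0493), and FPGS, which adds glutamates to folates, did not pass at 0.21. The median around BRD3 was 0.05, around CCNT1 0.16 and around CCNT2 -0.06.

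**Figure D4:**
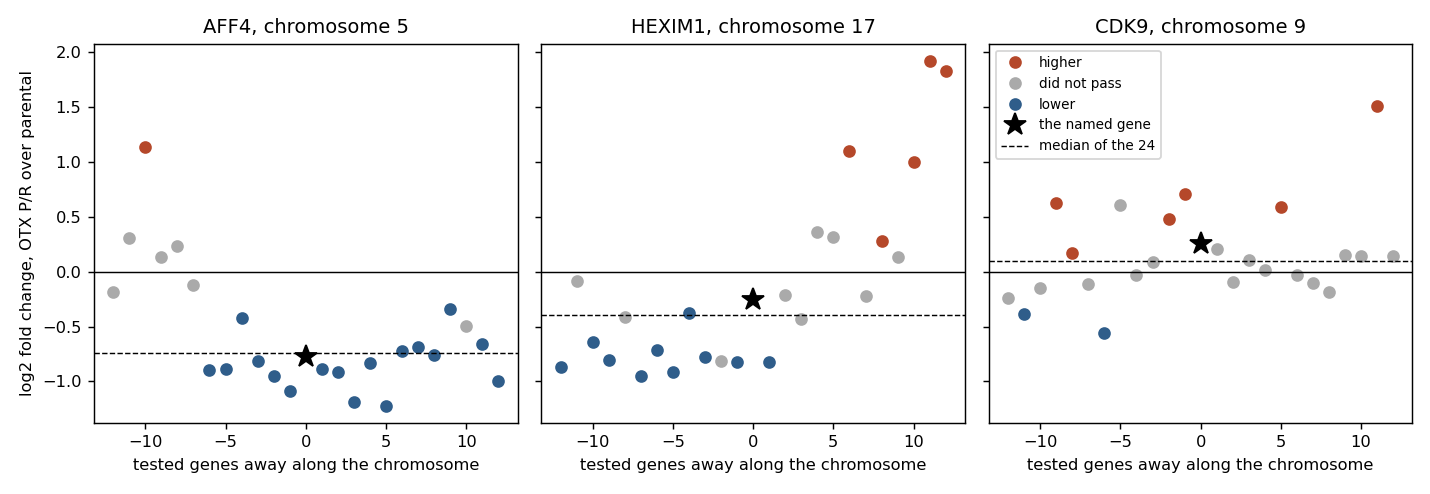
Log2 fold change, OTX P/R over parental, of the 12 tested genes on each side of AFF4, HEXIM1 and CDK9 in chromosomal order (offset 0 is the named gene, drawn as a star). AFF4 lies in a run of lower genes with a median of -0.74, HEXIM1 lies at the edge of one, and the genes around CDK9 scatter about a median of 0.10.

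The genes whose values followed each changed gene most closely over the 6 libraries were taken by Pearson's r of log2(value + 1). For HEXIM1 they were PPP3CA, a catalytic subunit of calcineurin (r = 0.996), and CPSF3, the nuclease of mRNA 3′ end cleavage (0.994). For CDK9 they were CHCHD2 (0.998), a mitochondrial protein, and DNAJB1 (0.997), a co-chaperone. For AFF4 they were GJA1, a connexin, and IFIT5, an interferon-stimulated gene, both at 0.998. The 6 libraries hold both groups, so any gene that differed between them can score high, and 11.3% to 12.8% of all tested genes had an r over 0.9 with the gene in question.

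The other subunits and partners of the elongation machinery moved in both directions. Over 8 lists of 96 genes, 90 were tested, 17 rose, 9 fell and 64 did not pass, with a median log2 fold change of 0.07. That is 28.9% called, against 36.1% of all tested genes. By direction, 18.6% of all tested genes rose and 17.5% fell. The counts of each list given below stand against these shares.

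Among the partners of AFF4 in the super elongation complex 3 of 6 tested genes rose and none fell, with a median of 0.29. ELL2, an elongation factor of the complex, was at 9.24, 12.7 and 12.4 in OTX P/R libraries, against 6.40, 5.67 and 6.57 in parental libraries (log2 fold change 0.78, limma adjusted p = 0.00522). All its OTX P/R values lie above the parental ones, so the scaffold AFF4 and this subunit differed in opposite directions. EAF2, which binds ELL proteins, stood at 8.73 ± 0.507 in OTX P/R cells and 5.81 ± 0.462 in parental cells (SD, n = 3 each; log2 fold change 0.52). MLLT1, a reader of acylated histones in the complex, was the third to rise, by a log2 fold change of 0.41. AFF1, the alternative scaffold, did not pass, at 5.05 in OTX P/R and 7.14 in parental cells (limma adjusted p = 0.0761). Without parental replicate 2 AFF1 was called lower, at -0.57 on the log2(value + 1) scale (limma adjusted p = 0.0109).

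Of the 9 genes of the 7SK particle and of P-TEFb release 3 rose, 1 fell and 5 did not pass, with a median of 0.15. Without parental replicate 3 HNRNPA1, another RNA-binding protein, was called lower as well (log2 fold change -0.83, limma adjusted p = 0.00305). MEPCE, which caps the 7SK RNA, was at 49.1, 52.2 and 47.2 in OTX P/R libraries, against 25.2, 25.4 and 22.6 in parental libraries, a log2 fold change of 0.99 (limma adjusted p = 1.39e-04). LARP7, which protects the other end of the 7SK RNA, was at 26.3, 25.9 and 26.4 in OTX P/R libraries, against 31.7, 37.5 and 34.6 in parental libraries, a log2 fold change of -0.38 (limma adjusted p = 0.00726). The transcripts of these proteins of the 7SK particle thus did not move together: MEPCE rose while LARP7 and HEXIM1 fell. HNRNPA2B1, an RNA-binding protein that takes up 7SK after P-TEFb leaves, rose by a log2 fold change of 0.36. JMJD6, a dioxygenase reported at sites of pause release, did not pass, at 18.9 in OTX P/R and 16.9 in parental cells.

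Of 5 tested pausing factors NELFB rose by 0.14, a call that was lost with any of the 6 libraries left out (adjusted p from 0.0588 to 0.0970). SUPT5H, the large subunit of DSIF and a substrate of CDK9, did not pass, at 58.7 in OTX P/R and 63.2 in parental cells. Of 8 genes of the PAF complex and SPT6 2 fell: SUPT6H, the histone chaperone SPT6, was at 9.00, 9.00 and 8.81 in OTX P/R libraries and at 17.5, 16.1 and 15.3 in parental libraries (log2 fold change -0.80, limma adjusted p = 2.60e-04), and its partner IWS1 fell by 0.24. The libraries of SUPT6H were far apart, with the OTX P/R values nearly equal to each other.

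Of 13 other transcription kinases and cyclins CCNL2, a cyclin of splicing kinases, rose by 0.34 and CDK12, which phosphorylates the polymerase further into genes, fell by 0.50. Both calls were lost with some libraries left out, CCNL2 in 4 of 6 fits (adjusted p up to 0.0659) and CDK12 in 5 of 6 (up to 0.118). CDK12 was lost without either of OTX P/R replicates 1 and 2 and without any parental replicate, and CCNL2 without OTX P/R replicates 1 and 3 and parental replicates 1 and 3. Of 12 RNA polymerase II subunits 2 rose, POLR2J by 0.93, at 65.1, 60.5 and 62.1 in OTX P/R libraries against 32.8, 32.6 and 31.5 in parental libraries, and POLR2C by 0.16. POLR2J is uncertain, since its reads may be shared with close copies of the gene, and the POLR2C call was lost in 5 of 6 fits that left out a library, all but that without parental replicate 2 (adjusted p up to 0.109).

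Among 6 tested partners of BET proteins and genes of their turnover CHD4, a chromatin remodeler, rose by 0.22, and ATAD5, which unloads the replication clamp, fell by 0.45. The CHD4 call was lost without OTX P/R replicate 2 or 3 and without parental replicate 2 or 3 (adjusted p up to 0.0973). SPOP, the adaptor of the ligase that degrades BET proteins, did not pass, at 18.5 in OTX P/R and 22.3 in parental cells, nor did NSD3, a histone methyltransferase bound by BET proteins, at 17.5 in OTX P/R and 16.5 in parental cells.

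Of 31 other tested genes with a bromodomain 6 rose, 4 fell and 21 did not pass, with a median of 0.10. The 6 became 3 without OTX P/R replicate 2 or 3, without parental replicate 3, with no filter and with the replicate number as a block, and the calls lost in each case were BRPF1, BAZ2A and ATAD2B. TRIM24, a corepressor, was at 14.7, 15.4 and 16.1 in OTX P/R libraries, against 5.19, 6.40 and 5.57 in parental libraries (log2 fold change 1.29, limma adjusted p = 1.19e-04). ZMYND11, a reader of H3.3 that acts on elongation, rose by 0.53. BRD8, of the TIP60 complex, was at 6.31, 7.11 and 8.64 in OTX P/R libraries, against 10.6, 16.1 and 15.1 in parental libraries (log2 fold change -0.83, limma adjusted p = 0.0134). KAT2A, the acetyltransferase GCN5, fell by 0.59. The groups did not overlap for TRIM24 or for BRD8. BRWD1 did not pass, at 11.6, 10.2 and 10.5 in OTX P/R libraries, against 12.6, 38.9 and 43.7 in parental libraries. Without parental replicate 1 BRWD1 was called lower (log2 fold change -1.84, limma adjusted p = 3.21e-04). BRD1 was called higher in the same fit (log2 fold change 0.50, limma adjusted p = 0.00556).

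**Figure D5:**
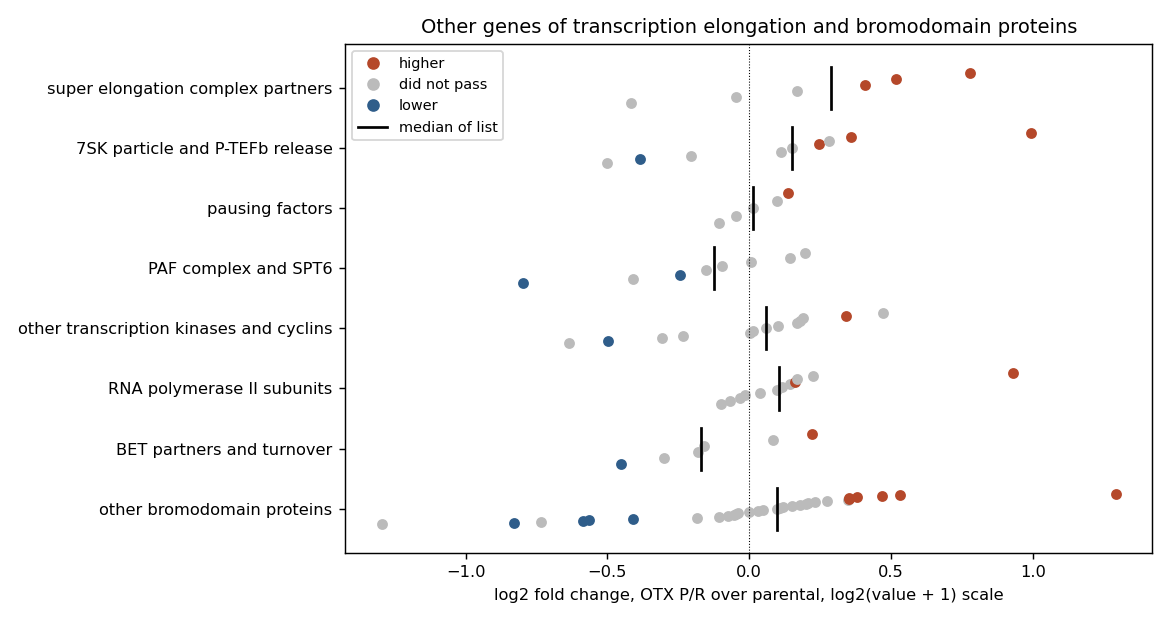
Log2 fold change, OTX P/R over parental, of the tested genes of 8 lists around the BET and P-TEFb genes (points, coloured by the limma call; vertical bar, median of the list). Every list spreads to both sides of 0, with TRIM24 at 1.29, MEPCE at 0.99, POLR2J at 0.93 and ELL2 at 0.78 far to the right and SUPT6H at -0.80 and BRD8 at -0.83 far to the left among the called genes.

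Several of the largest changes in these lists, like that of AFF4, lay among neighbours that moved the same way. The chromosomes were compared after the values were seen. On chromosome 7 47.7% of the tested genes rose, against 18.6% of all. Of the 17 list genes that rose 4 lie there, MEPCE, POLR2J, TRIM24 and HNRNPA2B1, out of 6 list genes tested on it. The 24 nearest tested genes had a median log2 fold change of 0.56 around MEPCE, 0.63 around POLR2J, 0.73 around TRIM24 and 0.06 around HNRNPA2B1. On chromosome 5 46.2% of the tested genes fell and on chromosome 17 29.3%, against 17.5% of all. Of the 9 list genes that fell 6 lie on these chromosomes, out of 15 list genes tested there. The median of the 24 nearest genes was -0.73 around SUPT6H, -0.77 around CDK12, -0.65 around KAT2A and -0.67 around BRD8. ELL2, also on chromosome 5, rose among neighbours with a median of -0.04. ZMYND11 rose by 0.53 among 12 neighbours with a median of -0.25, of which 5 fell and 1 rose, and EAF2 rose among neighbours with a median of -0.14. The medians were -0.09 around LARP7, 0.01 around CHD4, -0.00 around IWS1, 0.10 around NELFB, 0.12 around CCNL2 and 0.13 around POLR2C.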

How the data were processed

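Total RNA from 3 OTX P/R and 3 parental SET-2 cultures was sequenced. Per the submitters' processing notes, Trim Galore, HISAT2 and StringTie were used on build hg19, without stated versions. As deposited, each value is a linear signal per gene from StringTie; the labels do not say whether it began as FPKM or TPM. Sorted values of 1 or more differed between libraries by at most 0.243%, so the authors' table is quantile-normalized, and depth is unknown.

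Of 19785 genes 6 with a missing value were left out. Genes averaging 1 or more, 10741 in all, were fitted as log2(value + 1) with limma 3.58.1 in R 4.3.3. The fit used a trended prior, two-sided tests and Benjamini-Hochberg adjustment across these genes. The procedure was also run on simulated data with independent noise and few changed genes. That setting is unlike these data, so the run does not bear on the calls. Fold changes on this scale understate those of low genes. Exact permutation of 3 against 3 libraries cannot give p under 0.1. GENCODE v29 gave chromosomes and gene order for 19528 genes; its build differs from hg19, so no coordinates of it are used.

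The members and the lists were chosen with earlier results of these data known. Named are all 9 members, their nearest tested neighbours and 2 closest genes where called, and up to 2 called genes per direction and list averaging 5 or more in whichever group was higher; other genes named, the split of neighbours by side and the levels around each gene were chosen after the values were seen. CCNT2 has an antisense gene, HEXIM1 and HEXIM2 share one, BRD3 overlaps BRD3OS and BRD2 overlaps HLA-DMA; whether counting used strand is not given. Tables and plots used Python 3.11.15, pandas 2.3.3, NumPy 2.4.6 and Matplotlib 3.10.9.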

Additional observations from a re-analysis of the deposited data

How the results depend on the processing

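The calls of CDK9, HEXIM1 and AFF4 and the lack of a call for CCNT1, CCNT2 and BRD3 held under every alternative run: pseudocounts of 0.1 and 5, no filter, a minimum mean of 5 (which leaves out AFF4 and CCNT2), other priors, centring on the median, summed symbols, the replicate block and each library left out. Without a library the log2 fold change ran from 0.23 to 0.28 for CDK9, from -0.28 to -0.22 for HEXIM1 and from -0.88 to -0.70 for AFF4. The replicate numbers share only a number: deviations of same-numbered libraries correlated at -0.06, -0.03 and -0.00. With the replicate number as a block, the adjusted p was 0.0381 for CDK9, 0.0396 for HEXIM1 and 0.00596 for AFF4, and 10 rather than 17 list genes rose, with the calls of NELFB, CCNL2, POLR2C, CHD4, BRPF1, BAZ2A and ATAD2B lost, and the lower call of CDK12 was lost too. Without a library that count ran from 10 to 16, at 11 without OTX P/R replicate 2 or 3 and 10 without parental replicate 3; the cause was not tested. The medians of neighbouring genes depend on the window: with 5 and 25 genes on each side they were -0.90 and -0.48 around AFF4, -0.60 and -0.23 around HEXIM1, and 0.16 and -0.01 around CDK9. Depth is unknown, so no limit can be set for BRDT and HEXIM2.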
